A study of Homo sapiens with 12 samples.

Results

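The proteasome genes described here are the subunits, activators and assembly factors of the proteasome on Illumina HumanHT-12 V4 bead arrays, taken as every symbol of the platform's probe table that begins with PSM, a letter from A to G and a number, together with POMP, ADRM1 and NFE2L1. The rule found 51 symbols with 82 probes among 20046 named genes. Of these, 47 are proteasome genes. The other 4 (PSMC3IP, PSME3IP1, PSMD6-AS2 and PSMG3-AS1) only share the symbol and were counted apart. A probe was kept where some group had a detection p-value, which sets signal against negative controls, below 0.05 on each of its 3 arrays, and 43 of the 47 proteasome genes had such a probe. PSMA8, PSMB11, PSMD9 and PSMF1 did not. Just inside that limit stood PSMB9, detected on 6 of 12 arrays, and just outside stood PSMD9, on 4, and PSMF1, on 1. The other 42 genes were detected on all 12. PSMA7, PSMC5, PSMD7 and PSMD13 were not analysed here.

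The arrays came from Caco-2, a long-established line of epithelial cells that began as a human colon carcinoma, so that every value belongs to 1 tumour line in culture. All cells were transfected by lipofection, with a non-targeting control siRNA or an siRNA against MTF1, a zinc-sensing transcription factor that switches on metallothionein genes, and were held at 3 µM zinc (low) or 150 µM zinc (high). The series' design text speaks of a ZNF658 knockdown with 2 siRNAs, whereas its title and every sample label name MTF1, so the siRNA is called by its label here. Each of the 4 groups had 3 arrays. Nothing in the labels says that replicates were separate cultures, so p-values measure the spread between these arrays only. The sources used here do not give how long zinc or siRNA acted.

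The proteasome breaks down proteins marked with ubiquitin. Its barrel-shaped core particle has outer rings of alpha subunits and inner rings of beta subunits, of which PSMB5, PSMB6 and PSMB7 carry the active sites. The regulatory particle caps the core: its base holds the ATPases that unfold substrates and the receptors for ubiquitin, and its lid removes the ubiquitin chain. Interferon-inducible PSMB8, PSMB9 and PSMB10 can replace the active beta subunits and make the immunoproteasome, which favours peptides for antigen presentation. NFE2L1 is the transcription factor that raises proteasome genes when proteasome activity is short.

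Values are normalized log2 intensities, in which 1 unit is a doubling, and each change comes with the standard error (SE) of a linear model fitted to all 12 arrays. A gene passed where its limma p-value, adjusted over 14285 features, was under 0.05. Between 18191 and 19469 probes were detected per array, and arrays of a group correlated at 0.989 to 0.992. MTF1 itself read lower with its siRNA, with no overlap of arrays at either zinc level. The difference was -0.71 ± 0.22 at low zinc, which did not pass (limma, adjusted p = 0.201), and -0.98 ± 0.22 at high zinc, which did (adjusted p = 0.0483; -0.37 without background subtraction). That last call ended under 13 of 21 other settings, among them each left-out array but MTF1 siRNA low-zinc replicate 1 and high-zinc replicate 2. Of 10 Caco-2 markers 7 were detected, among them VIL1, EPCAM and CDX2, while FABP1 and KRT20 were not and HNF4A was not analysed here. Of 11 markers of other cell types measured, 5 were detected, and PTPRC, CD3E, PECAM1, VWF, PDGFRB and DCN were not. Over both siRNAs, the collagen gene COL1A2 rose with zinc by 0.90, the endothelial gene CDH5 by 0.58 and the macrophage gene CD68 by 0.25. COL1A1 fell by 0.42, and CD14, the other immune marker detected, read -0.18 and did not pass. Of the 7 Caco-2 markers detected, 2 rose and 2 fell, with changes from -0.44 for APOA1 to 0.665 for KRT18. Of all features, 27.1% passed in that comparison. The part of these markers in the results below was not tested. In a bulk sample, fewer cells of a kind and less RNA per cell cannot be told apart.

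High against low zinc asks how zinc changes these transcripts, and the genes that passed went both ways. With control siRNA, 4 of the 43 proteasome genes rose (PSMB8, PSMB9, PSMC4 and PSMD6) and 7 fell (PSMB3, PSMB4, PSMB6, PSMB10, PSMD8, PSME1 and PSME2). That is 25.6%, against 18.0% of all features tested, of which 8.62% rose and 9.39% fell. PSMB9 entered only through its control high-zinc arrays, and without it, a count added after the values were seen, 10 of 42 genes passed (23.8%). The median change of the 43 genes was 0.04 (0.01 without PSMB9), and that of all features was -0.01. With MTF1 siRNA, PSMB8, PSMC4 and PSMG4 rose and PSMB4 and PSMD4 fell, which is 11.6% against 15.7% of all features (7.20% higher and 8.51% lower). Averaged over both siRNAs, 4 genes rose (PSMB8, PSMC4, PSMD12 and ADRM1) and 8 fell (PSMB3, PSMB4, PSMB6, PSMB10, PSMD4, PSMD8, PSME1 and PSME2), or 27.9% against 27.1% (12.6% higher and 14.5% lower). The share of proteasome genes that passed therefore lay on both sides of the background and close to it in the average. Every fitted change of a proteasome gene lay between -0.69 and 0.92, that is, under a doubling in either direction.

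The counts changed when single arrays were left out, and what part of this came from having fewer arrays was not tested. The 11 calls with control siRNA became 3 without high-zinc replicate 3, 5 without low-zinc replicate 1, 6 without low-zinc replicate 3 and 7 without low-zinc replicate 2. The 5 calls with MTF1 siRNA became 1 without low-zinc replicate 1 or 2 or high-zinc replicate 1 or 2 of that siRNA, 2 without its high-zinc replicate 3, and 3 without each control low-zinc array in turn. The 12 calls of the average became 7 without low-zinc replicate 2 or high-zinc replicate 1 of the MTF1 siRNA. Without control high-zinc replicate 1 they became 16, and the count with control siRNA stayed at 11. PSMB4, PSMB8 and PSMD8 passed with control siRNA under every setting tried, PSMB8 alone did so with MTF1 siRNA, and PSMB4, PSMB6, PSMB8, PSMB10, PSMD8 and PSME1 did so in the average.

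The core and regulatory particles were then set side by side. Of 16 core genes measured, 2 rose and 4 fell with zinc under control siRNA (1 and 4 of 15 without PSMB9), against the 18.0% of all features that passed, and their median change was -0.07. Of 15 regulatory genes, 2 rose and 1 fell, with a median of 0.18, and 11 of the 15 changes were above 0 against 6 of 16 in the core. With MTF1 siRNA the medians were -0.07 in the core and 0.03 in the regulatory particle. In each, 1 gene rose and 1 fell (12.5% and 13.3%), against 15.7% of all features. In the average, 1 core gene rose and 4 fell (31.2%) around a median of -0.06. Of the regulatory genes, 3 rose and 2 fell (33.3%) around a median of 0.12. Of all features, 27.1% passed in the average. A difference between the particles was not tested. Of the 4 core genes that fell with control siRNA, 3 belong to the constitutive beta ring, as the plot of changes by proteasome component shows.

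**Figure D1:**
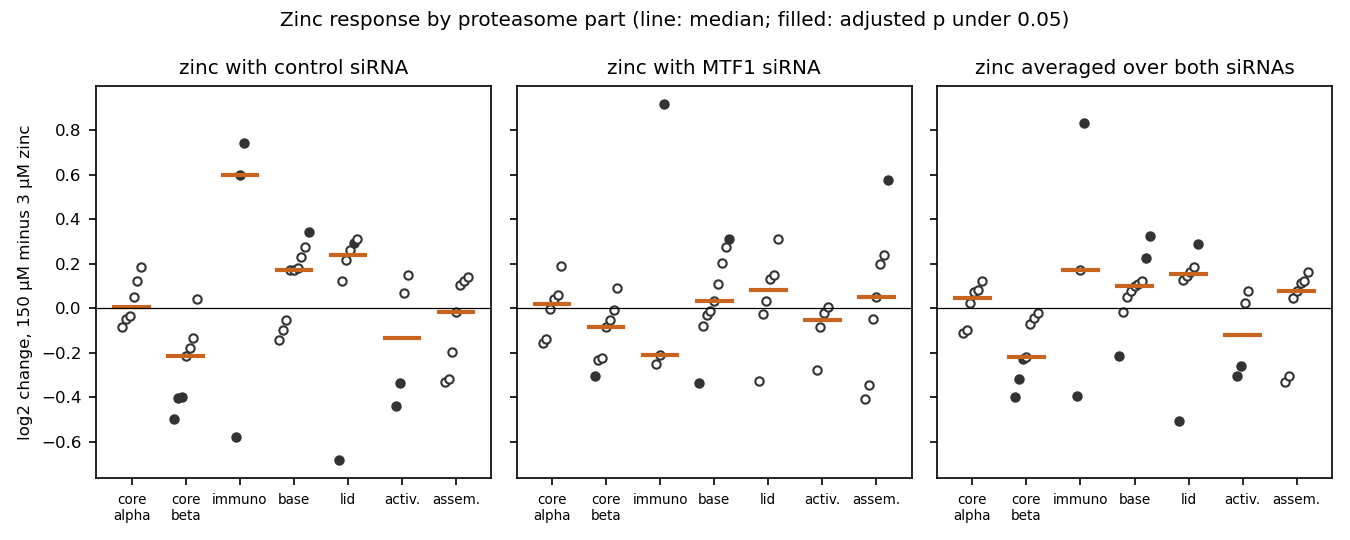
Log2 change with zinc (150 µM minus 3 µM, vertical axis) of each measured proteasome gene except NFE2L1, by component, with control siRNA, with MTF1 siRNA and averaged over both. Each point is a gene, filled where limma's adjusted p was under 0.05, and the orange line is the component's median. In the average all 7 core beta genes lie below 0, while the base and the lid have medians above 0 and the immunoproteasome genes are widest apart.

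Alpha subunits form the gate of the barrel, and the 6 measured stayed within a narrow band. None passed in any of the 6 comparisons made. With control siRNA their changes ran from -0.09 for PSMA2 to 0.18 for PSMA5, with 3 above 0 and 3 below. With MTF1 siRNA they ran from -0.16 for PSMA4 to 0.19 for PSMA3. A second probe of PSMA4 read -0.29 in the average and passed when probes were tested one by one (limma, adjusted p = 0.0346), while the probe used here read -0.10.

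Among the constitutive beta genes single members fell. Of 7 measured, PSMB3, PSMB4 and PSMB6 fell with control siRNA, where 9.39% of all features fell, none rose, and 6 changes were below 0 with a median of -0.22. In the average all 7 changes were below 0, again with a median of -0.22, and the same 3 genes passed.

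PSMB4, a structural subunit of the beta ring, read 11.97, 12.17 and 12.06 with control siRNA at low zinc and 11.56, 11.58 and 11.57 at high zinc, and with MTF1 siRNA 12.21, 12.17 and 12.09 at low zinc and 11.88, 11.91 and 11.76 at high zinc. All 6 high-zinc arrays lay below all 6 low-zinc arrays, and the 3 control high-zinc arrays were the lowest of the 12. The change was -0.50 ± 0.09 with control siRNA (1.41-fold lower; limma, adjusted p = 0.0027) and -0.30 ± 0.09 with MTF1 siRNA (1.24-fold lower; adjusted p = 0.0346). The call with control siRNA held without each array in turn. That with MTF1 siRNA ended without low-zinc replicate 1 or 2, or any high-zinc replicate, of the MTF1 siRNA (adjusted p = 0.0544 to 0.125). It also ended with arrays centred on their median (limma, adjusted p = 0.113) and with no filter on dim probes (0.114). The same held with a replicate block (0.0519) and with only the groups compared (0.0708).

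PSMB6, which carries the caspase-like active site, read 12.88, 12.80 and 12.83 with control siRNA at low zinc and 12.59, 12.51 and 12.20 at high zinc, and with MTF1 siRNA 12.91, 12.95 and 12.88 at low zinc and 12.56, 12.78 and 12.70 at high zinc. Every high-zinc array was again below every low-zinc array, and control high-zinc replicate 3 was the lowest. The change was -0.40 ± 0.11 with control siRNA (limma, adjusted p = 0.0271), -0.23 ± 0.11 with MTF1 siRNA (adjusted p = 0.183) and -0.32 ± 0.08 in the average (adjusted p = 0.0105). The control siRNA call ended without low-zinc replicate 1 or 3 or high-zinc replicate 3 (adjusted p = 0.0646 to 0.0917), and the call in the average held without each array.

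PSMB3, another structural beta subunit, read 13.22, 13.27 and 13.07 with control siRNA at low zinc and 12.96, 12.77 and 12.62 at high zinc, and 13.09, 13.24 and 13.14 against 13.14, 13.20 and 12.97 with MTF1 siRNA. The control groups did not overlap and the MTF1 siRNA groups did. The change with control siRNA was -0.40 ± 0.11 (limma, adjusted p = 0.0271), and it did not pass without low-zinc replicate 1 or 2 or high-zinc replicate 2 or 3 (adjusted p = 0.0653 to 0.101). The average of -0.23 ± 0.08 was at the threshold (adjusted p = 0.0499), and the call held only without low-zinc replicate 3 or high-zinc replicate 1 of the control siRNA (adjusted p = 0.0516 to 0.117 otherwise).

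The other 2 active-site subunits did not pass. PSMB5, with the chymotrypsin-like site, read 12.38, 12.11 and 12.38 with control siRNA at low zinc and 12.21, 12.06 and 11.96 at high zinc, and 12.48, 12.30 and 12.24 against 12.04, 12.20 and 12.11 with MTF1 siRNA. The groups overlapped with control siRNA and not with MTF1 siRNA, and the changes were -0.22 ± 0.11 with each (limma, adjusted p = 0.21 and 0.215). PSMB7, with the trypsin-like site, read 13.13, 13.07 and 13.05 against 13.19, 13.21 and 12.96 with control siRNA and 13.33, 13.25 and 13.21 against 13.06, 13.27 and 13.19 with MTF1 siRNA. Its changes of 0.04 ± 0.10 and -0.09 ± 0.10 were within the spread of the arrays, with 95% intervals of -0.17 to 0.25 and -0.30 to 0.13.

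Of the immunoproteasome subunits, PSMB8 rose with either siRNA and PSMB10 fell with control siRNA, while the values of PSMB9 are limited by its detection. PSMB8, which can take the place of PSMB5, read 5.95, 5.77 and 5.72 with control siRNA at low zinc and 6.66, 6.64 and 6.38 at high zinc, and with MTF1 siRNA 5.65, 6.02 and 5.33 at low zinc and 6.69, 6.51 and 6.57 at high zinc. All 6 high-zinc arrays stood above all 6 low-zinc arrays. The change was 0.74 ± 0.16 with control siRNA (1.67-fold; limma, adjusted p = 0.00777) and 0.92 ± 0.16 with MTF1 siRNA (1.89-fold; adjusted p = 0.00201), and both calls held without each array in turn. The probe is dim, and its change was 0.28 and 0.34 where no background was subtracted. A second, dimmer probe of PSMB8, detected on 10 arrays, read 0.16 ± 0.16 in the average and did not pass (adjusted p = 0.498).

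PSMB9, which can replace PSMB6, was detected on 2, 3, 1 and 0 arrays of control low zinc, control high zinc, MTF1 siRNA low zinc and MTF1 siRNA high zinc. It entered the tests only through the control high-zinc arrays, so a difference from them was built into its entry. It read 5.28, 5.22 and 4.87 with control siRNA at low zinc and 5.83, 5.58 and 5.74 at high zinc, and 5.42, 4.90 and 5.12 against 4.81, 4.77 and 5.11 with MTF1 siRNA. The 3 control high-zinc arrays were the highest of the 12. The change was 0.60 ± 0.16 with control siRNA (limma, adjusted p = 0.0219). With MTF1 siRNA it did not pass (adjusted p = 0.321), and no fold is given against high-zinc arrays on which it was undetected. The call with control siRNA ended without low-zinc replicate 3 or high-zinc replicate 1 or 3 (adjusted p = 0.0643 to 0.0811) and where no background was subtracted, with a change of 0.18.

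PSMB10, which can replace PSMB7, read 10.77, 10.48 and 10.83 with control siRNA at low zinc and 10.32, 10.04 and 9.98 at high zinc, and 10.37, 10.56 and 10.76 against 10.45, 10.45 and 10.16 with MTF1 siRNA. The control groups were apart and the MTF1 siRNA groups overlapped. It fell by 0.58 ± 0.14 with control siRNA (1.49-fold; limma, adjusted p = 0.016) and by 0.39 ± 0.10 in the average (adjusted p = 0.0128), and the -0.21 ± 0.14 with MTF1 siRNA did not pass (adjusted p = 0.367). The first call ended without low-zinc replicate 1 or 3 or high-zinc replicate 2 or 3 (adjusted p = 0.0516 to 0.0633), and the call in the average held without each array.

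Of 4 activator genes, PSME1 and PSME2 fell with control siRNA and in the average, and PSME3 and PSME4 did not pass. Of all features, 9.39% fell with control siRNA and 14.5% in the average. PSME1 and PSME2 form the interferon-inducible cap that opens the core without ATP. PSME1 read 11.74, 11.74 and 11.63 with control siRNA at low zinc and 11.36, 11.53 and 11.22 at high zinc, and 11.66, 11.77 and 11.69 against 11.45, 11.45 and 11.38 with MTF1 siRNA. Every high-zinc array lay below every low-zinc array. The changes were -0.34 ± 0.10 with control siRNA (limma, adjusted p = 0.0309), -0.28 ± 0.10 with MTF1 siRNA (adjusted p = 0.0723) and -0.31 ± 0.07 in the average (adjusted p = 0.00575). The control siRNA call ended without low-zinc replicate 1 or 2 or high-zinc replicate 1 or 3 (adjusted p = 0.0661 to 0.111), and the call in the average held without each array.

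PSME2 read 11.48, 11.60 and 11.58 with control siRNA at low zinc and 11.27, 11.22 and 10.86 at high zinc, and 11.47, 11.58 and 11.61 against 11.44, 11.41 and 11.55 with MTF1 siRNA. The control groups were apart, the MTF1 siRNA groups overlapped, and control high-zinc replicate 3 was the lowest of the 12 arrays. Its changes were -0.44 ± 0.11 with control siRNA (limma, adjusted p = 0.0195), -0.09 ± 0.11 with MTF1 siRNA (adjusted p = 0.672) and -0.26 ± 0.08 in the average (adjusted p = 0.0293). The first call ended without low-zinc replicate 2 or 3 or high-zinc replicate 3 (adjusted p = 0.0547 to 0.0636). The call in the average ended without control low-zinc replicate 2 or 3, replicate 2 or 3 of the MTF1 siRNA at low zinc, or its replicate 1 or 2 at high zinc (adjusted p = 0.0572 to 0.0627).

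The remaining activators are the nuclear cap PSME3 and PSME4, a cap linked to histone breakdown. PSME3 read 9.87, 9.87 and 9.95 against 10.13, 10.02 and 10.00 with control siRNA and 9.87, 9.80 and 9.80 against 9.84, 9.78 and 9.88 with MTF1 siRNA. The control groups were apart but the change of 0.15 ± 0.08 did not pass (limma, adjusted p = 0.231), and that with MTF1 siRNA was 0.01 ± 0.08. PSME4 read 10.87, 11.00 and 11.04 against 11.16, 10.90 and 11.06 with control siRNA and 11.11, 10.93 and 11.04 against 10.96, 11.02 and 11.04 with MTF1 siRNA, and its changes of 0.07 ± 0.10 and -0.02 ± 0.10 lay within the spread of the arrays.

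**Figure D2:**
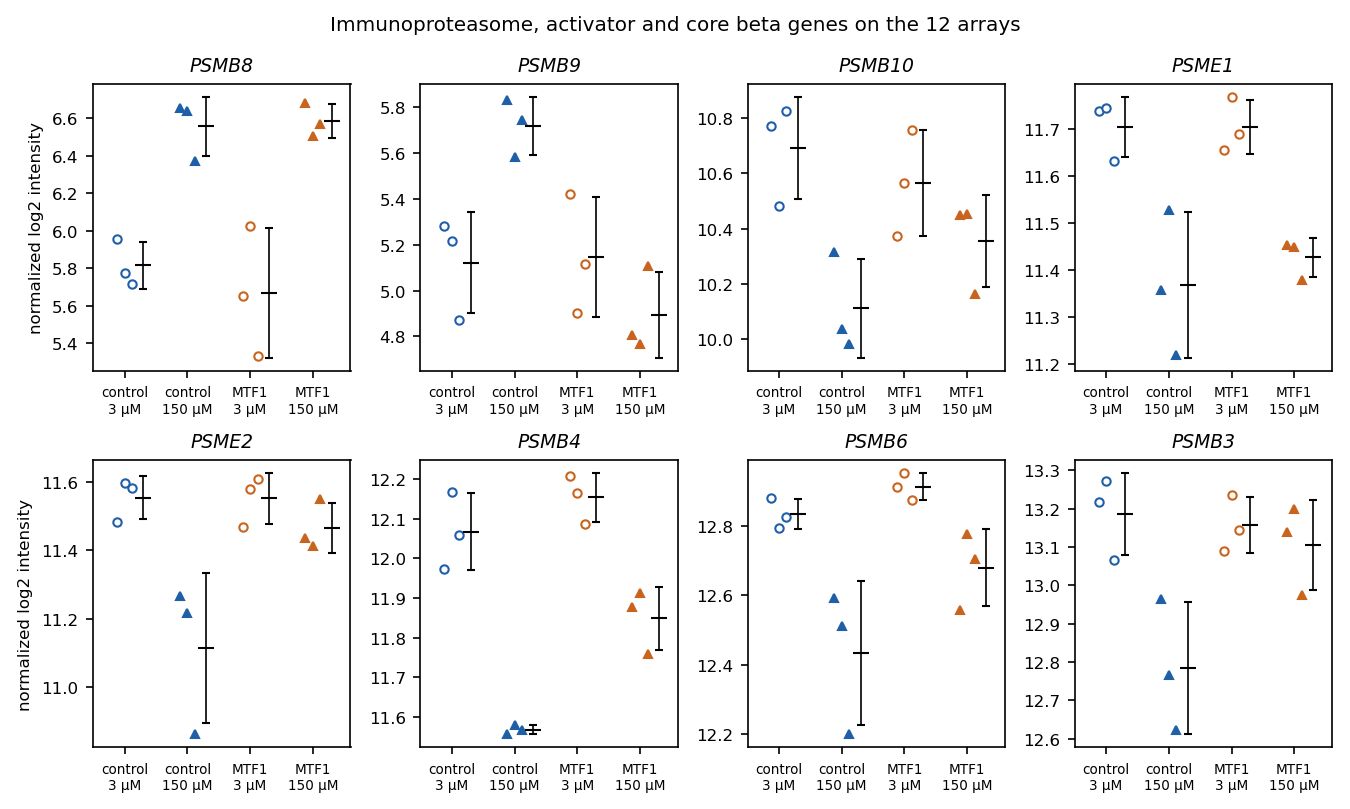
Normalized log2 intensity (vertical axis, a separate scale for each gene) of 8 immunoproteasome, activator and core beta genes on the 12 arrays, by siRNA and zinc concentration. Points are arrays, open at 3 µM and filled at 150 µM zinc, and the bars show the mean ± SD of 3 arrays. PSMB8 is higher on all 6 high-zinc arrays, and PSMB4, PSMB6 and PSME1 are lower on all 6.

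Immunoproteasome and PSME1 and PSME2 genes are known targets of interferon signalling, so their promoters were searched on both strands for the interferon-stimulated response element, spelled as GAAA, any 2 bases and GAAA again. RefSeq promoters (GRCh38.p14, 250 bases before to 50 after the first listed start of each gene) were at hand for 42 of the 47 proteasome genes. The letters were in 6 of these 42 (14.3%) and in 996 of 27305 promoters of all genes (3.65%). The 6 genes were PSMB10, PSMB4, PSME1, PSME2, PSMA4 and PSMG4. The first 4 fell with zinc under control siRNA, where 9.39% of all features fell, while PSMA4 (-0.04) and PSMG4 (-0.33) did not pass. Whether genes with a match fell more often than other genes was not tested. PSMB3 and PSMD8 also fell with control siRNA and hold no match, and the immunoproteasome gene PSMB9 holds none. The promoter of PSMB6, which fell too, was not analysed here. PSMB8 has 2 listed starts, and the element was found at the second and not at the first. A second start was searched for PSMB8 only, although 9 proteasome genes have more than 1. The shares above count first starts only, so PSMB8 is not among the 6. Stretches of the 4 genes that fell and hold a match, and of PSMB8, which rose, are shown so that the element can be compared. They are read along each gene's strand with the matched letters in capitals.
PSMB10 (chr16:67936851-67936901, minus strand): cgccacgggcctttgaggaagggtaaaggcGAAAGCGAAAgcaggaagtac
PSMB4 (chr1:151399475-151399544, plus strand): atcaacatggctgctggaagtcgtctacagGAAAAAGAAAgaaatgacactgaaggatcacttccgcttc
PSME1 (chr14:24136189-24136218, plus strand): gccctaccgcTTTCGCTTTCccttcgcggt
PSME2 (chr14:24146611-24146668, minus strand): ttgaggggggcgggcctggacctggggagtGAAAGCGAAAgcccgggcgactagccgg
PSMB8, second start (chr6:32844032-32844061, minus strand): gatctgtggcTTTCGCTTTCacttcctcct
In PSMB10 the match begins 21 bases before the start, in PSMB4 68 bases before, in PSME2 28 bases before and in PSMB8 4 bases before its second start. That of PSME1 begins 5 bases after the start, and in PSME1 and PSMB8 the element lies on the opposite strand. A match is a description of the letters and does not show that a factor bound there.

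In the regulatory particle, the 5 base ATPases measured include PSMC4, which rose with either siRNA. These are the motor subunits that unfold the substrate. PSMC4 read 10.93, 11.01 and 10.86 with control siRNA at low zinc and 11.21, 11.19 and 11.42 at high zinc, and 11.08, 11.05 and 10.88 against 11.30, 11.35 and 11.29 with MTF1 siRNA. All 6 high-zinc arrays stood above all 6 low-zinc arrays. The changes were 0.34 ± 0.10 (limma, adjusted p = 0.0286) and 0.31 ± 0.10 (adjusted p = 0.0487), and 0.33 ± 0.07 in the average (adjusted p = 0.00411). The average held without each array in turn. The control siRNA call ended without low-zinc replicate 1 or 3 or high-zinc replicate 3 (adjusted p = 0.0787 to 0.104), and the MTF1 siRNA call held only without control high-zinc replicate 2 or 3. Where the 3 probes of PSMC4 were averaged, the changes were 0.23, 0.16 and 0.19 and none of the 3 calls remained. The other 4 ATPases did not pass: with control siRNA their changes ran from -0.14 for PSMC3 to 0.28 for PSMC1, and with MTF1 siRNA from -0.08 for PSMC2 to 0.11 for PSMC3.

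Among the ubiquitin receptors of the base, ADRM1 rose and PSMD4 fell in the average. ADRM1, which also recruits the deubiquitinating enzyme UCHL5, read 11.85, 12.08 and 12.13 with control siRNA at low zinc and 12.12, 12.38 and 12.07 at high zinc, and 12.08, 12.09 and 12.05 against 12.34, 12.35 and 12.36 with MTF1 siRNA. The control groups overlapped and the MTF1 siRNA groups did not. Its changes were 0.17 ± 0.11 and 0.28 ± 0.11, neither of which passed (limma, adjusted p = 0.289 and 0.103), and 0.22 ± 0.07 in the average (adjusted p = 0.0446). That call held only without control low-zinc replicate 3 or control high-zinc replicate 1 or 3 (adjusted p = 0.0554 to 0.103 otherwise). A second probe of ADRM1, detected on all 12 arrays, read -0.07 with control siRNA, 0.33 with MTF1 siRNA and 0.13 in the average, and did not pass (adjusted p = 0.692, 0.0646 and 0.247 over all probes).

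PSMD4, the other receptor, read 11.56, 11.73 and 11.76 with control siRNA at low zinc and 11.71, 11.57 and 11.49 at high zinc, and 12.08, 12.08 and 11.85 against 11.64, 11.67 and 11.68 with MTF1 siRNA. The control groups overlapped, and the MTF1 siRNA low-zinc arrays were the highest of the 12. The changes were -0.10 ± 0.10 with control siRNA (limma, adjusted p = 0.548), -0.34 ± 0.10 with MTF1 siRNA (adjusted p = 0.0421) and -0.22 ± 0.07 in the average (adjusted p = 0.0425). The call with MTF1 siRNA held only without control low-zinc replicate 1, control high-zinc replicate 1 or 3, or MTF1 siRNA low-zinc replicate 3 (adjusted p = 0.05 to 0.132 otherwise). The call in the average held only without control low-zinc replicate 1, control high-zinc replicate 1 or MTF1 siRNA low-zinc replicate 3 (adjusted p = 0.0715 to 0.094 otherwise). A second probe of PSMD4, detected on all 12 arrays, fell by 0.36 with control siRNA and by 0.38 with MTF1 siRNA (adjusted p = 0.0172 and 0.0131 over all probes). It read -0.37 ± 0.06 in the average (adjusted p = 0.00115), and a further one -0.20 ± 0.08 (adjusted p = 0.0926). PSMD1, a scaffold subunit, and PSMD2, a scaffold that also binds ubiquitin, read 0.08 and 0.10 in the average and did not pass.

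Single genes passed in the lid. Of 6 lid genes, PSMD6 rose and PSMD8 fell with control siRNA, none passed with MTF1 siRNA, and PSMD12 rose and PSMD8 fell in the average. The shares of all features that passed were 18.0%, 15.7% and 27.1%, in the same order, and that of the lid in the average was 33.3%. PSMD8, a lid subunit, read 9.95, 9.56 and 9.31 with control siRNA at low zinc and 8.97, 9.05 and 8.73 at high zinc, and 9.99, 9.92 and 10.19 against 9.70, 9.81 and 9.60 with MTF1 siRNA. Within each siRNA the high-zinc arrays lay below the low-zinc arrays, and the 3 control high-zinc arrays were the lowest of the 12. Its changes were -0.69 ± 0.16 with control siRNA (1.61-fold lower; limma, adjusted p = 0.0114), -0.33 ± 0.16 with MTF1 siRNA (adjusted p = 0.187) and -0.51 ± 0.11 in the average (adjusted p = 0.00544). The first and last held without each array in turn.

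PSMD12, a lid subunit of the horseshoe-shaped scaffold, read 10.86, 11.20 and 10.92 with control siRNA at low zinc and 11.05, 11.35 and 11.35 at high zinc, and 10.96, 10.91 and 10.87 against 11.32, 11.08 and 11.27 with MTF1 siRNA. The control groups overlapped and the MTF1 siRNA groups did not. The changes of 0.26 ± 0.12 and 0.31 ± 0.12 did not pass (limma, adjusted p = 0.157 and 0.103), and the average of 0.29 ± 0.08 did (adjusted p = 0.0265). That call held only without control low-zinc replicate 2, control high-zinc replicate 1, MTF1 siRNA low-zinc replicate 1 or MTF1 siRNA high-zinc replicate 2 (adjusted p = 0.0503 to 0.0651 otherwise). PSMD6 went from 12.16 ± 0.06 to 12.45 ± 0.03 with control siRNA (SD, n = 3; limma, adjusted p = 0.0271) and from 12.08 ± 0.04 to 12.11 ± 0.06 with MTF1 siRNA. Its call ended without low-zinc replicate 1 or 2 or high-zinc replicate 2 or 3 of the control siRNA (adjusted p = 0.0595 to 0.0939). The call also ended where the probes of PSMD6 were averaged (limma, adjusted p = 0.0784). A second probe of PSMD6, detected on all 12 arrays, read 0.20 with control siRNA and did not pass (adjusted p = 0.243 over all probes). The deubiquitinating subunit PSMD14 read 0.31 with control siRNA and -0.03 with MTF1 siRNA and did not pass.

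**Figure D3:**
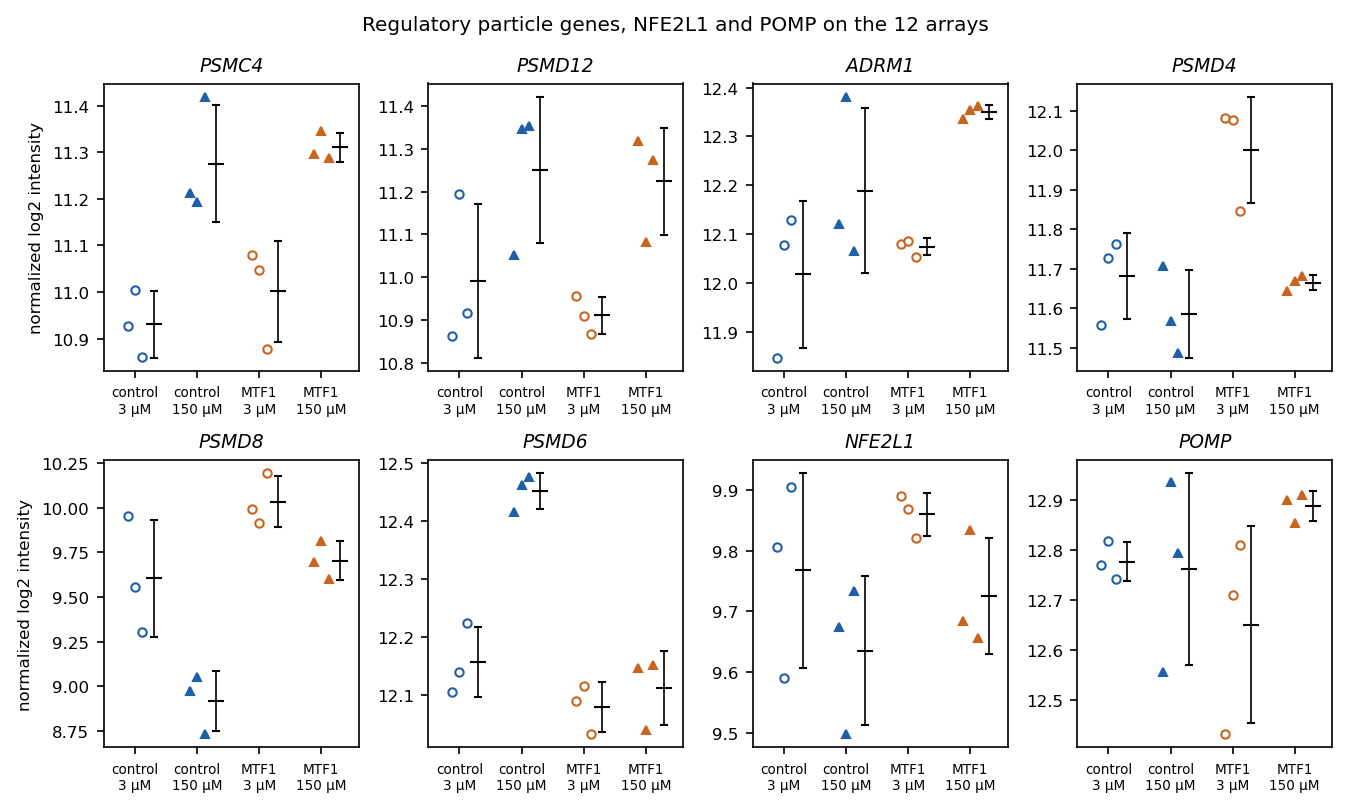
Normalized log2 intensity (vertical axis, a separate scale for each gene) of 6 regulatory particle genes, the transcription factor NFE2L1 and the core assembly chaperone POMP on the 12 arrays. Points are arrays, open at 3 µM and filled at 150 µM zinc, and the bars show the mean ± SD of 3 arrays. PSMC4 is higher on all 6 high-zinc arrays, PSMD8 is lowest on the 3 control high-zinc arrays, and NFE2L1 overlaps between groups.

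NFE2L1, with small MAF partners, binds antioxidant response elements, which were searched for on both strands as TGACNNNGC or TGAGNNNGC. With suitable letters in the middle these also spell the AP-1 site TGANTCA. They were in 20 of the 42 proteasome promoters (47.6%) and in 8038 of all 27305 (29.4%), in 6 of 15 core promoters (40%) and in 7 of 14 regulatory ones (50%). All 3 regulatory genes that rose in the average hold a match. So do PSMD8, PSMB3, PSME1 and PSME2, which fell, while the first promoter of PSMB8, which rose, holds none. Of the genes that rose with a single siRNA and not in the average, PSMB9 holds a match and PSMD6 and PSMG4 hold none. Among genes that fell, PSMB4 and PSMB10 hold none, and the promoters of PSMD4 and PSMB6 were not analysed here. Stretches of the 3 regulatory genes that rose are shown, ending before the gene's start.
PSMC4 (chr19:39971089-39971157, plus strand): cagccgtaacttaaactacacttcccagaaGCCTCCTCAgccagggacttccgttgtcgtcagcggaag
PSMD12 (chr17:67366704-67366772, minus strand): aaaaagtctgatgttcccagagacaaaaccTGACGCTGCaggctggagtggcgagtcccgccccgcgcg
ADRM1 (chr20:62302729-62302797, plus strand): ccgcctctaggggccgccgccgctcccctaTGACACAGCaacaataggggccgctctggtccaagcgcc
The matches begin 46 bases before the start in PSMC4, on the opposite strand, 165 bases before in PSMD12 and 137 bases before in ADRM1. PSMC4 has a further match after its start. The metal response element to which MTF1 binds, spelled TGCACNC or TGCGCNC, was in 13 of the 42 proteasome promoters (31%) and in 29.3% of all.

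Among the assembly factors, which put the core and the base together, 1 of 7 measured genes passed in any zinc comparison. That call came with MTF1 siRNA, where 15.7% of all features passed. None of the 7 passed with control siRNA or in the average, against 18.0% and 27.1% of all features. PSMG4, a chaperone of alpha ring assembly, went from 9.07 ± 0.32 to 8.73 ± 0.09 with control siRNA (limma, adjusted p = 0.21) and from 8.58 ± 0.28 to 9.16 ± 0.17 with MTF1 siRNA (SD, n = 3; adjusted p = 0.0441), a rise of 0.57 ± 0.17. The arrays overlapped with control siRNA and not with MTF1 siRNA. The call held only without control low-zinc replicate 2 or 3 or, for the MTF1 siRNA, replicate 3 at low or at high zinc (adjusted p = 0.0541 to 0.157 otherwise). POMP, the chaperone that completes the core, read 12.77, 12.82 and 12.74 against 12.56, 12.94 and 12.79 with control siRNA and 12.43, 12.71 and 12.81 against 12.90, 12.86 and 12.91 with MTF1 siRNA. Its groups overlapped with control siRNA and not with MTF1 siRNA, and the changes of -0.01 ± 0.12 and 0.24 ± 0.12 did not pass (limma, adjusted p = 0.945 and 0.213). Of the base chaperones, PSMD5 read -0.20 and -0.41 and PSMD10 read 0.14 and -0.05 with control and MTF1 siRNA, and neither passed. A second probe of PSMG1, detected on all 12 arrays, read 0.31 in the average. It passed when probes were tested one by one (limma, adjusted p = 0.0485), while the PSMG1 probe used here read 0.16.

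NFE2L1 read 9.81, 9.59 and 9.90 with control siRNA at low zinc and 9.67, 9.50 and 9.73 at high zinc, and 9.89, 9.87 and 9.82 against 9.68, 9.83 and 9.66 with MTF1 siRNA. The groups overlapped with either siRNA. Its changes of -0.13 ± 0.11 with each did not pass (limma, adjusted p = 0.417 and 0.444), with 95% intervals of -0.36 to 0.10 and -0.37 to 0.10. NFE2L1 is activated by cleavage and release from the endoplasmic reticulum, which transcript levels do not measure.

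**Figure D4:**
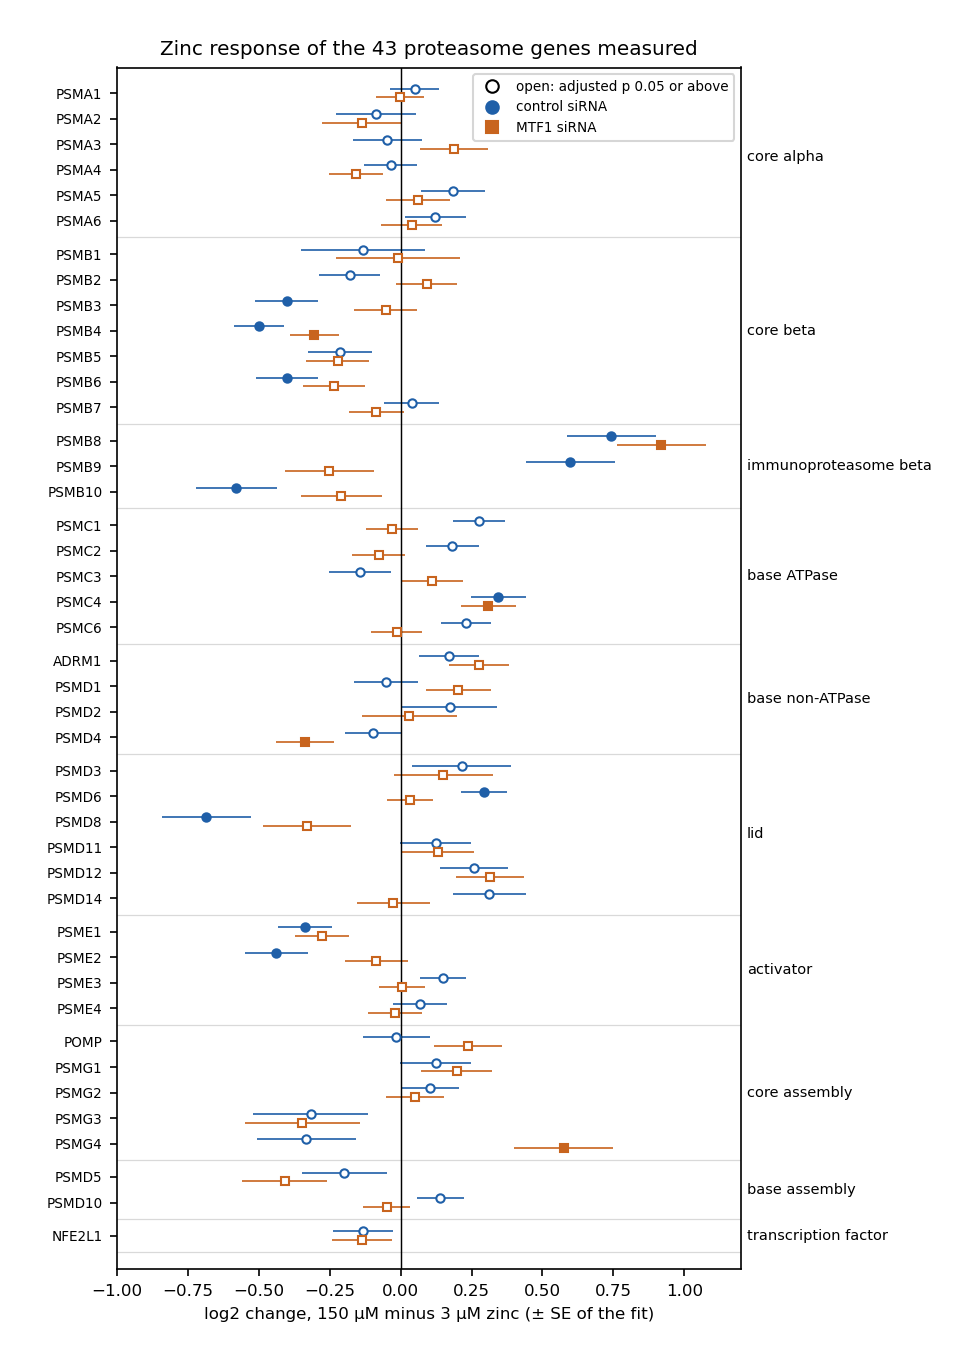
Log2 change with zinc (150 µM minus 3 µM, horizontal axis) ± SE of the 43 measured proteasome genes by class, with control siRNA (blue circles) and MTF1 siRNA (orange squares). Filled symbols passed limma's adjusted p of 0.05. PSMB8 and PSMC4 are filled above 0 and PSMB4 below 0 with both siRNAs, and the 6 core alpha genes have open symbols near 0.

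MTF1 siRNA against control siRNA asks whether MTF1 bears on these transcripts. At low zinc none of the 43 proteasome genes passed (limma, lowest adjusted p = 0.212 for PSMD4), where 0.119% of all features passed. At an unadjusted p under 0.05 there were 4 of 43, against 14.7% of all features, and no other setting gave a call. At high zinc PSMB9 was lower and PSMD8 higher with MTF1 siRNA, which is 4.65% against 1.90% of all features (0.672% higher and 1.23% lower), and 10 of 43 were under an unadjusted p of 0.05, against 20.7% of all features. PSMB9 had entered the tests through the control high-zinc arrays of this comparison, so a difference from them was built into its entry, and without it 1 of 42 genes passed (2.38%). PSMB9 was undetected on all 3 MTF1 siRNA high-zinc arrays, so its fold is a bound: it was at least 1.42-fold lower than the mean of 5.72 with control siRNA (measured mean 4.89; limma, adjusted p = 0.0267). PSMD8 was 0.78 ± 0.16 higher, a 1.72-fold difference (adjusted p = 0.0327), with no overlap between the arrays.

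Neither siRNA call was stable. No call was left without any one of the control high-zinc arrays or MTF1 siRNA high-zinc replicate 1 or 2 (lowest adjusted p of the 43 genes between 0.0527 and 0.106), and PSMB9 alone remained without MTF1 siRNA high-zinc replicate 3. Where no background was subtracted, the PSMB9 difference was -0.25 and 6 genes passed, which added PSMB3, PSMB4 and PSME2 above 0 and PSMD6 below. With background subtraction these stood at 0.32 ± 0.11, 0.28 ± 0.09, 0.35 ± 0.11 and -0.34 ± 0.08 (limma, adjusted p = 0.137, 0.108, 0.115 and 0.0564). All 7 core beta genes were higher with MTF1 siRNA at high zinc, with a median of 0.25, and none passed. This comparison and the zinc response with control siRNA share the 3 control high-zinc arrays, so their values for a gene are not independent.

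The interaction tests whether the zinc response differed between the siRNAs. None of the 43 genes passed (limma), where 0.0210% of all features did, and 6 were under an unadjusted p of 0.05 against 15.9% of all features. The lowest adjusted p among genes detected on all 12 arrays was that of PSMG4, with a difference of 0.91 ± 0.25 (adjusted p = 0.172). PSMB9 was undetected in 1 of the 4 groups and is given no size of difference (adjusted p = 0.168). PSMG4 passed under 3 other settings: without background subtraction (limma, adjusted p = 0.0419), with the authors' deposited log2 values (0.0451) and with a mean-variance trend (0.0474). These settings called the same proteasome genes in each comparison and use the same arrays, so they are not separate checks. For PSMB8, PSMB4 and PSMC4, which passed with each siRNA, the interaction was 0.18 ± 0.22, 0.19 ± 0.12 and -0.04 ± 0.14, with 95% intervals of -0.31 to 0.66, -0.07 to 0.46 and -0.33 to 0.26.

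Genes that work around the proteasome were described beside it. Of 46 such genes listed, covering ubiquitin, proteasome-bound enzymes, shuttles and adaptors, VCP and its cofactors, and the control of NFE2L1, 38 were measured. With control siRNA 7 rose and 1 fell (21.1%), with MTF1 siRNA 8 rose and 3 fell (28.9%), and in the average 11 rose and 2 fell (34.2%), against the same shares of all features as above. The 8 calls with control siRNA became 4 without low-zinc replicate 1 or high-zinc replicate 2 or 3, and 5 without low-zinc replicate 3. The 11 with MTF1 siRNA became 7 without its low-zinc replicate 3, 6 without its high-zinc replicate 1 and 5 without its high-zinc replicate 3. In the average, 8 of the 13 calls held under every setting: ZFAND2A, MAFF, MAFG, NFE2L3, SQSTM1, UCHL5, SYVN1 and NFE2L2.

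ZFAND2A, an arsenite-inducible zinc-finger protein that binds the proteasome, rose from 9.81 ± 0.16 to 10.91 ± 0.04 with control siRNA and from 9.83 ± 0.12 to 11.25 ± 0.02 with MTF1 siRNA (SD, n = 3), which is 2.15-fold and 2.67-fold (limma, adjusted p = 2.61e-05 and 1.84e-06). SQSTM1, which carries ubiquitinated cargo to autophagy, rose by 0.43 ± 0.07 in the average (adjusted p = 0.00057). UCHL5, the enzyme recruited by ADRM1, rose by 0.44 in the average (adjusted p = 0.00395). UBXN1, a VCP cofactor, rose by 0.37 with MTF1 siRNA (adjusted p = 0.00907) and read 0.05 with control siRNA. Each of these calls held without each array in turn. The ubiquitin gene UBB read -0.25 and -0.26 and did not pass, and none of the 8 VCP genes passed with control siRNA.

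Several genes around NFE2L1 passed. MAFF, a small MAF protein that pairs with NFE2L1 and its relatives on DNA, rose from 6.40 ± 0.23 to 7.92 ± 0.08 with control siRNA and from 6.39 ± 0.21 to 8.35 ± 0.10 with MTF1 siRNA (SD, n = 3), that is 2.87-fold and 3.88-fold (limma, adjusted p = 2.38e-05 and 1.82e-06). Its probe is dim, and the log2 change was 0.83 and 1.13 where no background was subtracted. Its relative MAFG read 0.05 with control siRNA (adjusted p = 0.775) and rose by 0.83 with MTF1 siRNA (adjusted p = 0.000221; 0.55 without background subtraction), and the interaction of 0.78 ± 0.15 did not pass (adjusted p = 0.116). NFE2L3, a close relative of NFE2L1, fell by 0.60 and by 1.08 (adjusted p = 0.000983 and 6.19e-06). In the average NFE2L2, which drives antioxidant genes, rose by 0.35 (adjusted p = 0.0163) and SYVN1, a ubiquitin ligase of the endoplasmic reticulum, by 0.40 (adjusted p = 0.00297). At high zinc, MTF1 siRNA arrays had less NFE2L3, by -0.57 (adjusted p = 0.0149), and more MAFG, by 0.52 (adjusted p = 0.0327), than control arrays. The NFE2L3 call ended without MTF1 siRNA high-zinc replicate 1 or 2 (adjusted p = 0.0565 to 0.0641), and the MAFG call without any one of the 6 high-zinc arrays (adjusted p = 0.0579 to 0.119).

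**Figure D5:**
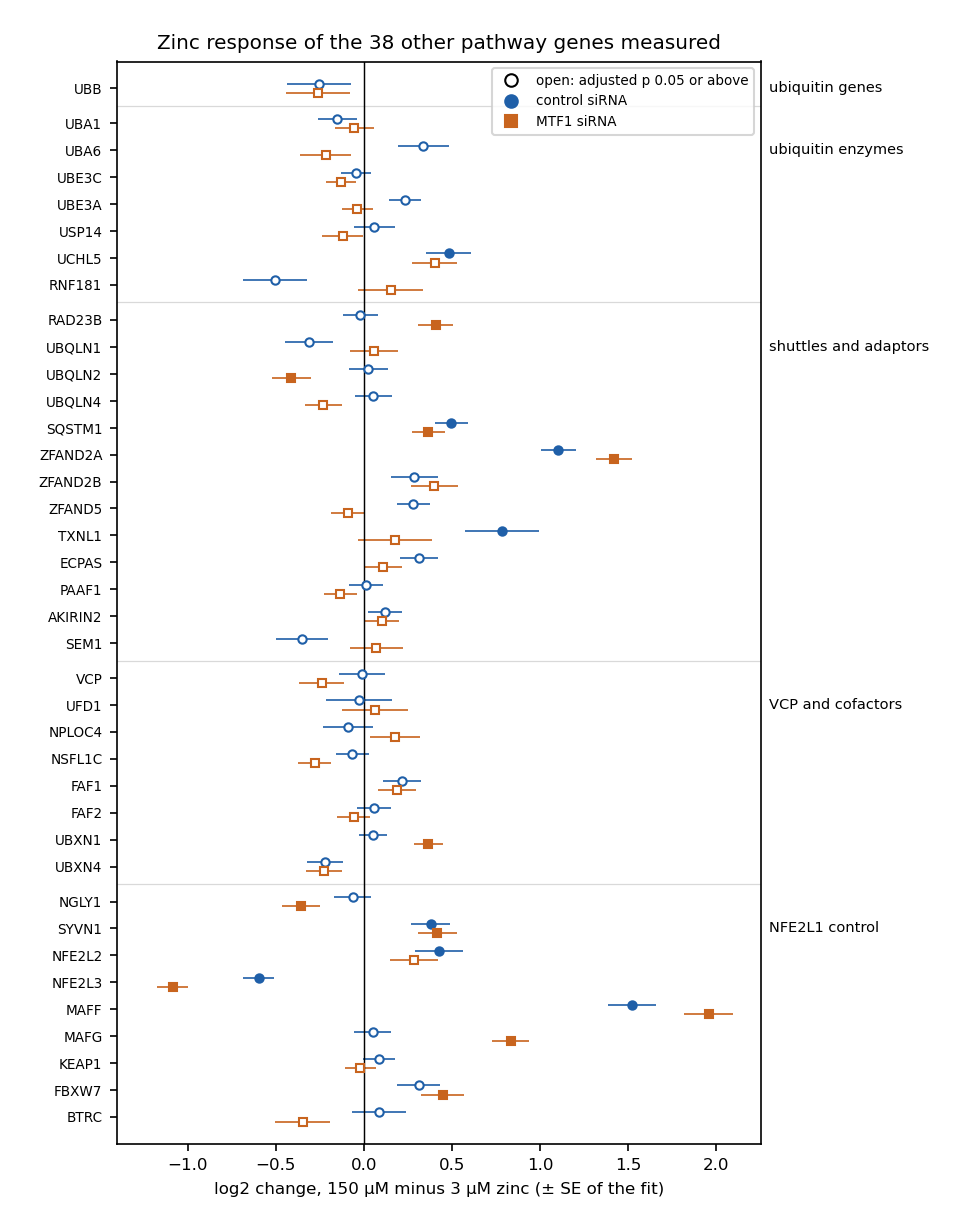
Log2 change with zinc (150 µM minus 3 µM, horizontal axis) ± SE of the 38 measured genes that work around the proteasome, with control siRNA (blue circles) and MTF1 siRNA (orange squares), by list. Filled symbols passed limma's adjusted p of 0.05. MAFF and ZFAND2A lie farthest to the right and NFE2L3 farthest to the left with both siRNAs.

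Of the 4 genes that only share a symbol, 2 were measured. PSMC3IP, a recombination protein named for its binding to PSMC3 and not a subunit, rose with zinc by 0.58 with control siRNA, by 0.45 with MTF1 siRNA and by 0.51 in the average (limma, adjusted p = 0.00586, 0.0215 and 0.000752). Without background subtraction these PSMC3IP changes were 0.31, 0.25 and 0.28. Its call with MTF1 siRNA ended without that siRNA's low-zinc replicate 1 or 2 or high-zinc replicate 2 or 3 (adjusted p = 0.0505 to 0.0846). The other 2 kept probes of PSMC3IP read 0.38 and 0.32 with control siRNA and did not pass (limma, adjusted p = 0.144 and 0.3 over all probes). In the average they read 0.47 and 0.31, and only the first passed (adjusted p = 0.0143 and 0.143). PSME3IP1, a binding partner of PSME3, did not pass. Among the 14 symbols with more than 1 kept probe, the probes of 13 agreed in sign in the average, and those of PSMD10 did not.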

How the data were processed

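The deposited table held probe intensities without normalization, per the file headers. A detection p-value was deposited for each. A deposited series matrix held the authors' log2 values of the same arrays, with array medians of 7.03. The sources used here do not give the scanner software. Groups came from the sample titles.

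Normexp correction used a background inferred from detection p-values, and intensities were raised by an offset of 16, quantile normalized and brought to log2 (neqc, limma 3.58.1, R 4.3.3). Of 47323 probes, 30113 have 1 symbol in the platform annotation, 8 several and 17202 none; 30074 were matched by gene identifier, so symbols are current. Of 17413 probes kept, each gene was represented by that of highest mean, which gave 14285 features. A linear model with group means was fitted across the 12 arrays (lmFit, eBayes) with 6 contrasts, two-sided, adjusted by Benjamini-Hochberg over all features. The fit was tested on simulated data.

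Members, lists, motifs and alternatives were chosen with earlier results of these data known. Array values are given for the 12 members that passed in the zinc average and for catalytic, immunoproteasome and activator subunits, NFE2L1 and POMP; others by range and count. Alternatives were other background, scaling and filter settings, all probes of a gene, a replicate block, a mean-variance trend, fits restricted to the compared groups and each array left out. The number of arrays limits the precision.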

Additional observations from a re-analysis of the deposited data

How the results depend on the processing

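The alternatives could change how many of the 43 proteasome genes passed but reversed the direction of no called gene. With control siRNA the zinc count of 11 became 4 with no filter on dim probes and 5 with only the groups compared, and ran from 3 to 11 with an array left out. With MTF1 siRNA the zinc count of 5 became 9 without background correction, with the authors' deposited log2 values or with a mean-variance trend, 3 with each array centred on its median, 2 with only the groups compared and 1 with no filter, and ran from 1 to 4 with an array left out. The 12 of the average became 7 with no filter and ran from 7 to 16. For MTF1 siRNA at high zinc, 2 became 6 without background correction, with the authors' values or with a trend, 0 with no filter or only the groups compared, and ran from 0 to 2; without PSMB9, chosen after seeing the data, it was 1. For the interaction, 0 became 1 (PSMG4) without background correction, with the authors' values or with a trend, and stayed at 0 with an array left out. With no filter, more features were tested; for the others the cause was not tested. At low zinc MTF1 siRNA gave 0 throughout. Over the 43 genes and 6 comparisons, 4926 recomputed values kept sign and side of the threshold, 165 lost the call, 61 gained it, and 174 changed sign with no call on either side. Calls gained included PSMB5 in the average (6 settings), PSMD5 with MTF1 siRNA and in the average (5 each), and PSMC1 and PSMD14 with control siRNA (4 each). Same-numbered arrays of different groups did not deviate together (correlations of -0.097 to 0.144, 1 of 18 over 0.1). Differently numbered arrays gave a like range (-0.126 to 0.154, 1 of 36 over 0.1). With 3 arrays per group, these values cannot exclude that equal numbers mark a shared culture or run. With the replicate block 10, 1 and 9 genes passed for zinc with control siRNA, with MTF1 siRNA and averaged, and 1 for MTF1 siRNA at high zinc. Dim probes such as those of PSMB8 and PSMB9 lie near background, and the size of their change depends on its subtraction.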
